A study of Homo sapiens with 13 samples.

Results

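The 10 genes described here encode chemokine and homing receptors of lymphocytes, namely CXCR3, CXCR4, CXCR5, CCR4, CCR6, CCR7, CCR9, S1PR1, S1PR4 and P2RY8. They were chosen by name, and each was read from the probe set annotated to that symbol alone, taking the one with the highest mean over the arrays where a gene had several. All 10 were measured, out of 18568 genes on the array. RNA levels came from Affymetrix HG-U133 Plus 2.0 arrays of 13 established cell lines of acute lymphoblastic leukemia (ALL), all untreated and with 1 array per line. B-cell precursor ALL (BCP-ALL) was represented by 6 lines (Nalm6, Nalm16, Nalm30, REH, 697 and RS4,11) and T-cell ALL (T-ALL) by 7 (Jurkat, Molt4, HPB-ALL, CCRF-CEM, ALL-SIL, TALL-1 and P12-ICHIKAWA). Each line was sampled once, so the lines are the replicates of a lineage, and the spread within a line was not measured. Values are log2 of the array signal plus 16. The lowest possible value is therefore 4, and levels below 5 are called near the floor. A difference on this scale understates the fold change of a weakly expressed gene.

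Chemokine receptors are G protein-coupled receptors that steer lymphocytes along gradients of small secreted proteins, the chemokines, mainly through the inhibitory G protein family. CXCR4 holds precursors in the bone marrow near CXCL12, CCR7 guides naive T cells into lymph nodes, and CCR9 guides progenitors into the thymus and T cells to the small intestine. The sphingosine 1-phosphate receptor S1PR1 drives exit from lymphoid organs, and P2RY8 restrains migration and keeps B cells in the germinal center.

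The arrays of P12-ICHIKAWA and TALL-1 correlated at r = 0.993 over all probe sets, against 0.770 to 0.959 for every other pair. The highest of the other pairs, at 0.959, was Nalm16 with Nalm30. With the remaining BCP-ALL lines Nalm16 correlated at 0.805 to 0.842 and Nalm30 at 0.848 to 0.879. These lines also had the lowest array medians, 5.05 and 5.09, and are averaged in 1 of the settings below. Over all genes P12-ICHIKAWA and TALL-1 differed by a median of 0.12 log2 units, with a 95th percentile of 0.42, and CD28 differed between them by 4.28. For the 10 receptors they differed by 0.01 (CCR6) to 0.56 (CCR4). The 95th percentile of 0.42 is used below as a scale, and neighbouring lines closer than that are not treated as separated. CCR4, CXCR3 (0.49) and CCR9 (0.47) exceeded it in this pair itself. The scale is therefore a working rule and not a bound on the noise of these receptors. Lineage markers as groups followed the labels, since all 7 measured B-lineage markers were lower and 6 of 8 T-lineage markers higher in T-ALL. CD2 and CD28 did not pass. CD2 was near the floor in CCRF-CEM and Molt4, and CD28 in CCRF-CEM, Molt4, ALL-SIL and P12-ICHIKAWA. Single lines also departed from their lineage, with VPREB1 at 4.15 in REH, CD79A at 8.15 in P12-ICHIKAWA and LCK at 10.03 in Nalm30. The summed log2 level of the 7 B-lineage markers ran from 69.2 to 73.6 in BCP-ALL and from 31.0 to 37.1 in T-ALL. Myeloid markers summed to 38.0 to 43.1 and 34.6 to 37.9, and natural killer cell markers to 29.4 to 34.5 and 29.9 to 35.1. No member of either list passed the test. The sums hide high levels in single lines, named after the values were seen. Among these were MPO at 12.11 in REH, LYZ at 11.20 in Nalm6, CEBPA at 8.02 in Nalm16 and Nalm30, and NKG7 at 11.19 in ALL-SIL.

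The DNA just upstream of the start is shown for the receptors whose levels differed most between lines (CCR9 and S1PR4) and for CXCR4, which was well above the floor in every line. The sequences are RefSeq's for GRCh38.p14, 250 bases up to the annotated start, read 5′ to 3′ on the strand of the gene. They lie at chr3:45886293-45886542 (plus strand) for CCR9, chr19:3178519-3178768 (plus strand) for S1PR4 and chr2:136118150-136118399 (minus strand) for CXCR4. Capitals mark matches, on either strand, to the E-box CAGGTG, to the NRF1 core GCATGCGC or to the KLF motif CCCCACCC. They also mark the TATA box, searched as TATAAA.
CCR9: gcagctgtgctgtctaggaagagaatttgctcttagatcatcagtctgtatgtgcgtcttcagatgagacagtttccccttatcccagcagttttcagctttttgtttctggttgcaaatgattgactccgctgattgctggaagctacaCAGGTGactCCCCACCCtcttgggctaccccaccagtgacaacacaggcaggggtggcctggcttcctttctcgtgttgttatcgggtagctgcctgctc
S1PR4: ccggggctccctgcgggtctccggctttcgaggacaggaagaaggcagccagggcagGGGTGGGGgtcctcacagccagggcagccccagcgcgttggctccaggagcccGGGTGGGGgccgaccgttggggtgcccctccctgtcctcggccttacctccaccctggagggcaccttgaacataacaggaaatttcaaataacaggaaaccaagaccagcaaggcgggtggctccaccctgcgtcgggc
CXCR4: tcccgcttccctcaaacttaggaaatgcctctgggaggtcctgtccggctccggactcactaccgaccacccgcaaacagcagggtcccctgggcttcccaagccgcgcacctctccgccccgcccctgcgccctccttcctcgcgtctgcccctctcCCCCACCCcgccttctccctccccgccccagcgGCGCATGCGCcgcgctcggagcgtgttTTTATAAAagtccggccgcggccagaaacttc
The CCR9 window held 1 E-box beside 1 KLF motif and 4 CpG dinucleotides. The S1PR4 window held 2 KLF motifs and 13 CpG. The CXCR4 window held 24 CpG, with a KLF motif, an NRF1 core that reads on both strands and a TATA box that reads on both strands. The median over 34961 promoter windows of this length was 11 CpG. Of these windows 17.5% held the E-box, 10.7% the TATA box, 2.64% the NRF1 core and 10.4% the KLF motif. RefSeq lists further starts for CCR9 and CXCR4, not printed here, whose windows differ. The second CCR9 window held 6 CpG and 2 TATA box matches, with no E-box or KLF motif. The remaining CXCR4 windows held 8 and 12 CpG and, of the motifs searched, a KLF motif each. These matches describe letters in the window and say nothing of binding. The table held a promoter for 9 of the 10 receptors, all but CCR7.

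**Figure D1:**
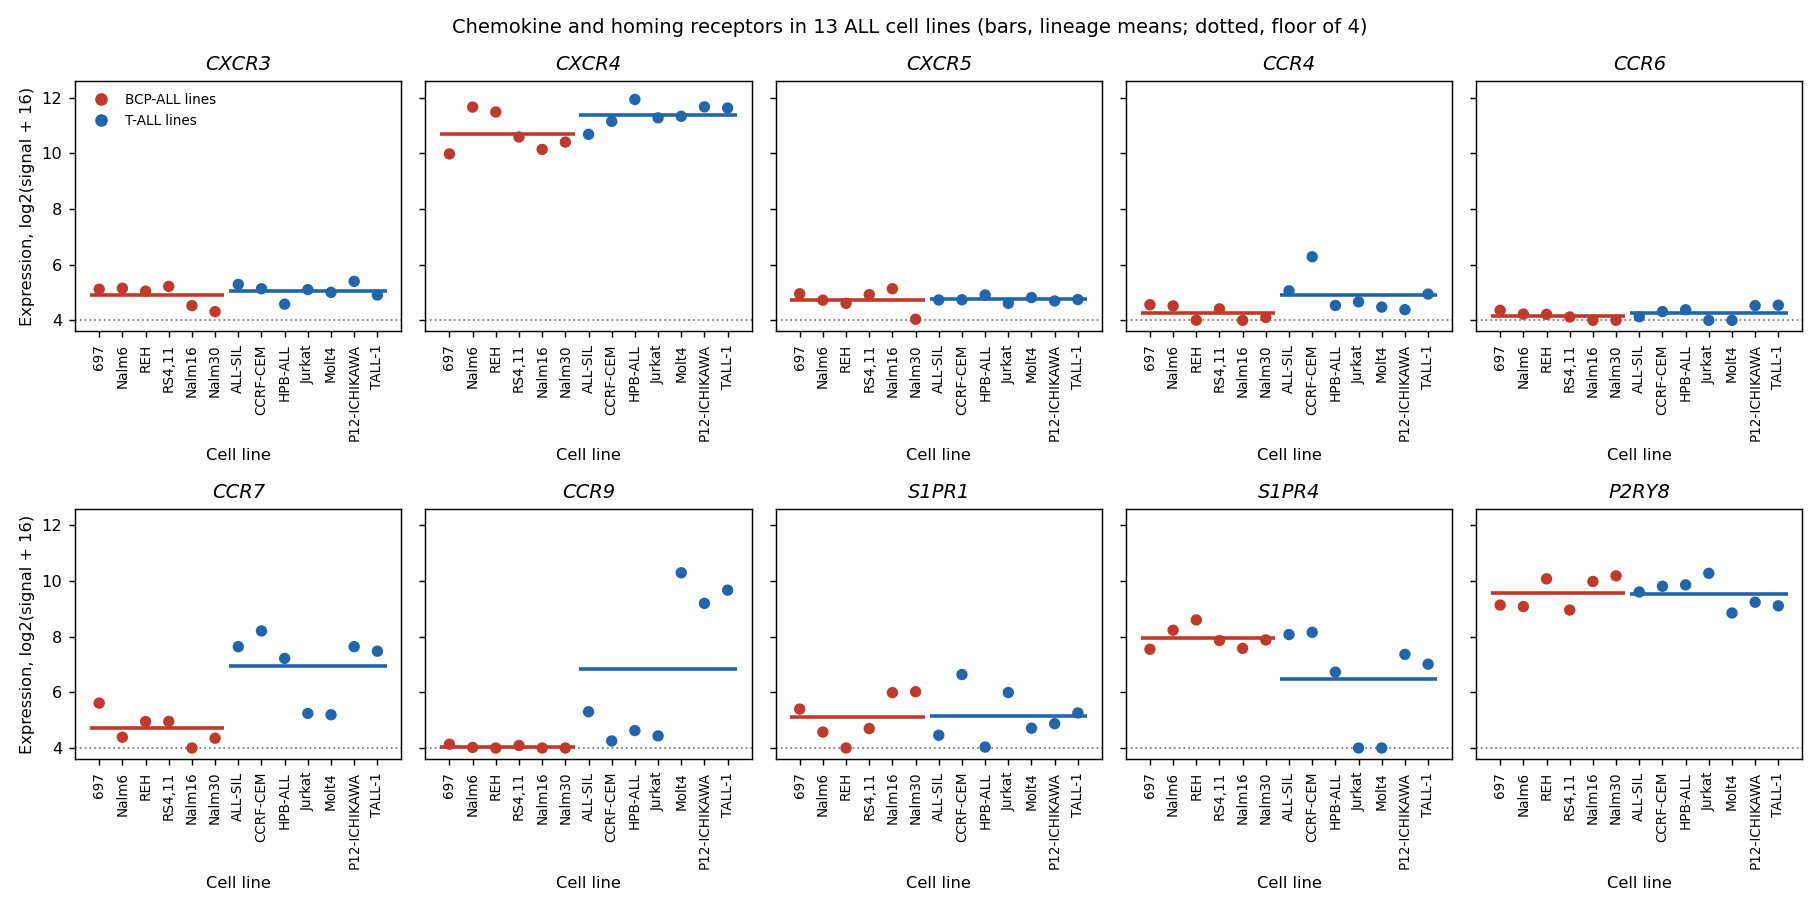
Level of each receptor (log2 of signal plus 16, vertical axis) in the 13 cell lines (horizontal axis), with BCP-ALL in red and T-ALL in blue. Bars are lineage means and the dotted line is the floor of 4. CXCR4 and P2RY8 lie high in every line, CCR6 lies near the floor in every line, and CCR9 and S1PR4 split the T-ALL lines.

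The lineage comparison asked which receptors differed between T-ALL and BCP-ALL lines. CCR7 alone passed, being higher in T-ALL. In bulk RNA, fewer cells expressing a gene and less RNA per cell cannot be told apart. Thus 1 of the 10 receptors was called higher and 0 were called lower (limma, Benjamini-Hochberg adjusted p under 0.05 over all 18568 genes). Among all genes 2.27% were called higher and 2.19% lower in T-ALL. At an unadjusted limma p under 0.05, 5 receptors differed, where 19.6% of all genes did. The median difference of the 10 receptors was 0.14 log2 units (T-ALL minus BCP-ALL), beside -0.0060 for all genes. The two-sided exact permutation test used all 1716 assignments of the 13 lines, and its smallest possible p is 0.000583. By this test 3 receptors had an unadjusted p under 0.05, namely CCR4, CCR7 and CCR9. It was run on the receptors alone, so there is no share of all genes to set beside this count, and nothing is read from it.

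**Figure D2:**
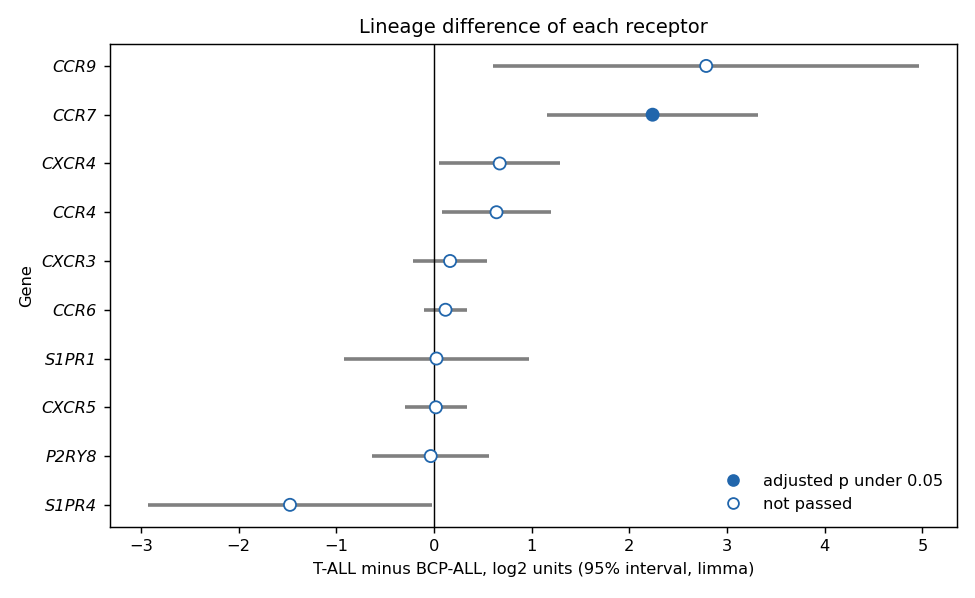
Difference between the lineage means of each receptor, T-ALL minus BCP-ALL, in log2 units on the horizontal axis. Lines are 95% intervals from limma. The filled point, CCR7 at 2.24, passed the adjusted threshold and the open points did not.

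CCR7, the receptor for the lymph node chemokines CCL19 and CCL21, was 4.72-fold higher in T-ALL on this scale. Its level in the BCP-ALL lines was 5.62 in 697, 4.96 in RS4,11, 4.95 in REH, 4.39 in Nalm6, 4.35 in Nalm30 and 4.0 in Nalm16. In T-ALL it was 8.21 in CCRF-CEM, 7.64 in both ALL-SIL and P12-ICHIKAWA, 7.48 in TALL-1, 7.22 in HPB-ALL, 5.24 in Jurkat and 5.20 in Molt4. Thus 5 of the 7 T-ALL lines lay above every BCP-ALL line, while Jurkat and Molt4 lay below 697 and within the BCP-ALL range. The gap between Jurkat and HPB-ALL was 1.98. Lineage means were 4.71 ± 0.578 (SD, n = 6) and 6.95 ± 1.22 (SD, n = 7). The difference was 2.24 log2 units (SE 0.501, 95% interval 1.16 to 3.31, limma adjusted p = 0.0212, exact permutation p = 0.00583). The adjusted p was 0.0540 without Nalm16, 0.0527 without Nalm30, 0.0528 with these lines averaged and 0.0569 with weights by lineage, so in these settings CCR7 no longer passed. With P12-ICHIKAWA and TALL-1 averaged it was 0.0492.

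CCR9, the receptor for the thymic and intestinal chemokine CCL25, had the widest range of the 10, at 6.30 log2 units. It was 10.30 in Molt4, 9.67 in TALL-1 and 9.20 in P12-ICHIKAWA, and 5.30 in ALL-SIL, 4.63 in HPB-ALL, 4.44 in Jurkat and 4.25 in CCRF-CEM. In BCP-ALL the level lay between 4.0 and 4.14, at the floor in all 6 lines. The T-ALL lines therefore fell on either side of a gap of 3.90, the widest between neighbouring lines for any of these receptors. By value CCR9 was the 1 receptor of 10 whose T-ALL lines all exceeded every BCP-ALL line, as did 1.33% of all genes. For CCRF-CEM, HPB-ALL and Jurkat this order rests on levels near the floor, so nothing is read from it. The mean was 4.04 ± 0.0580 in BCP-ALL (SD, n = 6) and 6.83 ± 2.75 in T-ALL (SD, n = 7). The difference of 2.79 (SE 1.01, 95% interval 0.61 to 4.96) did not pass over all genes (limma adjusted p = 0.149), and the exact permutation p was 0.0239 before adjustment. With P12-ICHIKAWA and TALL-1 averaged into 1 sample the difference was 2.35 (limma adjusted p = 0.259).

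Reading CCR7 and CCR9 together separated the T-ALL lines further. P12-ICHIKAWA and TALL-1 were high for both receptors, Molt4 was high for CCR9 with CCR7 at 5.20, and ALL-SIL, CCRF-CEM and HPB-ALL were high for CCR7 with CCR9 at 5.30 or below. Jurkat was low for both, at 5.24 for CCR7 and 4.44 for CCR9.

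**Figure D3:**
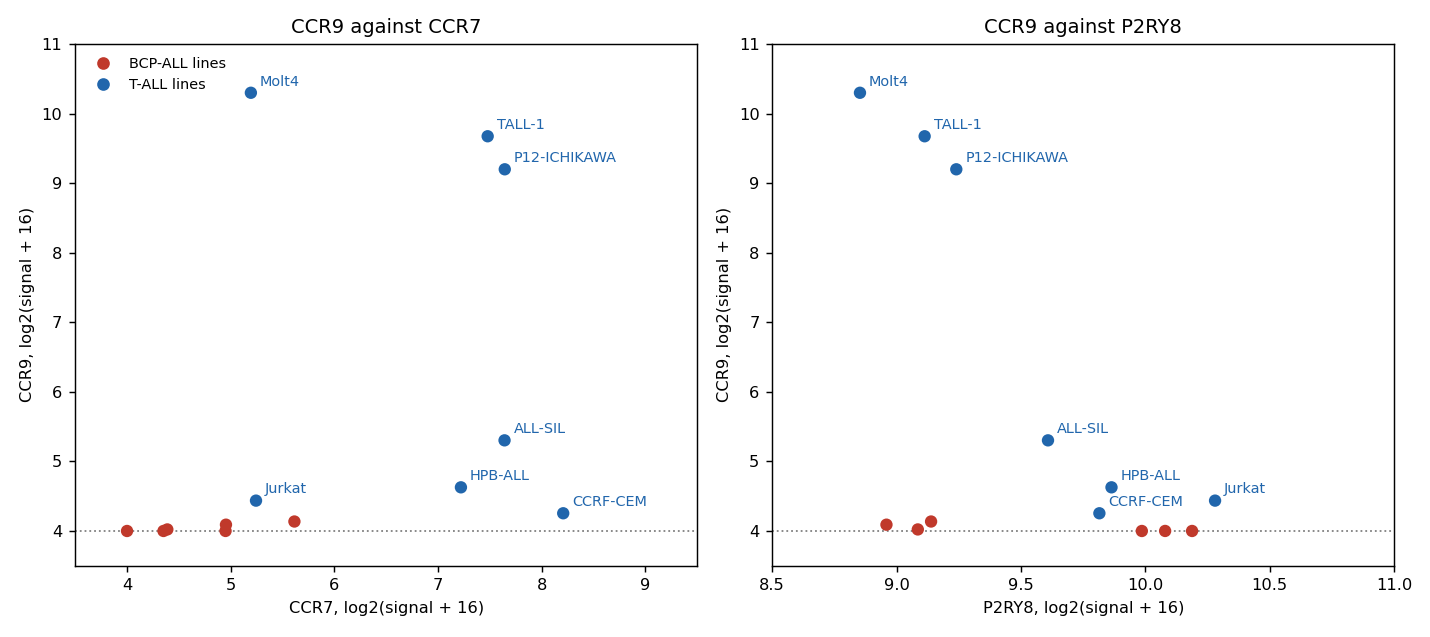
CCR9 against CCR7 (left) and against P2RY8 (right), all in log2 of signal plus 16, with each point 1 cell line, BCP-ALL in red and T-ALL in blue with names. Molt4, TALL-1 and P12-ICHIKAWA have CCR9 at 9.20 or more and P2RY8 at 9.24 or less, and the other T-ALL lines have P2RY8 between 9.61 and 10.28, the nearest of them 0.37 away, which is under the scale of 0.42.

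CXCR4, the receptor for the marrow chemokine CXCL12, was well above the floor in every line. In BCP-ALL it was 11.66 in Nalm6, 11.49 in REH, 10.59 in RS4,11, 10.41 in Nalm30, 10.14 in Nalm16 and 9.98 in 697, so Nalm6 and REH stood 0.90 above the others. In T-ALL it ran from 10.68 in ALL-SIL to 11.94 in HPB-ALL, with a median of 11.33. The groups overlapped, and the T-ALL lines above the highest BCP-ALL line, HPB-ALL and P12-ICHIKAWA, were not separated from it by the scale of 0.42. Means were 10.71 ± 0.704 in BCP-ALL (SD, n = 6) and 11.38 ± 0.410 in T-ALL (SD, n = 7). The difference of 0.67 (SE 0.287, 95% interval 0.06 to 1.29) did not pass (limma adjusted p = 0.215, exact permutation p = 0.0571). The 3 probe sets of CXCR4 followed each other across the lines with r between 0.984 and 0.996.

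CCR4, a receptor of type 2 helper and regulatory T cells, was near the floor in 11 of 13 lines. The exceptions were CCRF-CEM at 6.29 and ALL-SIL at 5.06. The other T-ALL lines lay between 4.38 and 4.94 and the BCP-ALL lines between 4.0 and 4.56, so the groups overlapped. The difference of 0.64 (SE 0.261, 95% interval 0.08 to 1.20) did not pass (limma adjusted p = 0.196), and the exact permutation p before adjustment was 0.0239. Without CCRF-CEM the difference was 0.41 (limma adjusted p = 0.150).

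CXCR3, which directs type 1 helper and cytotoxic T cells to inflamed tissue, gave different patterns by probe set. The probe set with the higher mean lay between 4.31 in Nalm30 and 5.40 in P12-ICHIKAWA, with no neighbouring lines further apart than 0.42. The second probe set reached 7.17 in ALL-SIL, 6.11 in Jurkat and 5.92 in Nalm30, and was at 4.91 or below in the other 10 lines. Over the 13 lines the probe sets correlated at r = -0.015 (Spearman's rank correlation -0.066). Nalm30 was thus near the floor, at 4.31, by the first probe set and at 5.92 by the second. Neither separated the lineages, with differences of 0.16 (95% interval -0.22 to 0.54, limma adjusted p = 0.636) for the first and 0.72 (exact permutation p = 0.195) for the second. The first ranged from 0.05 (without Nalm30) to 0.24 when 1 line was left out. Which probe set follows the CXCR3 transcript was not tested.

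**Figure D4:**
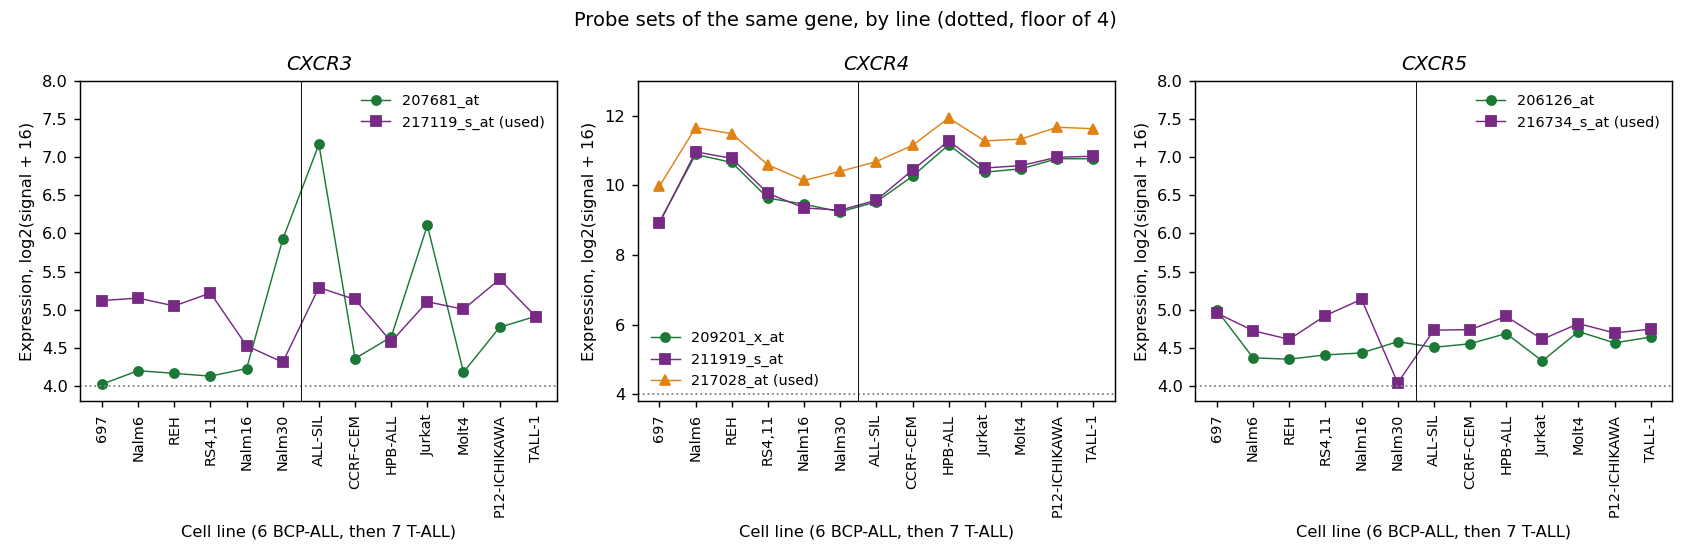
Levels (log2 of signal plus 16, vertical axis) of every probe set of CXCR3, CXCR4 and CXCR5 across the 13 lines, with BCP-ALL to the left of the vertical line. The 3 CXCR4 probe sets run in parallel, while 1 CXCR3 probe set peaks in ALL-SIL at 7.17 and the other stays between 4.31 and 5.40.

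CXCR5 and CCR6, both receptors of mature B cells and of subsets of helper T cells, were low throughout. CXCR5, which leads cells to the follicle, was near the floor in 12 lines and reached 5.14 in Nalm16. Its difference was 0.02 (95% interval -0.29 to 0.33, limma adjusted p = 0.962), and its sign changed under quantile normalization. Its second probe set also stayed at or below 5.00 and correlated with the first at r = 0.165. CCR6, the receptor for CCL20, was near the floor in all 13 lines, between 4.0 and 4.54. Its difference was 0.12 (95% interval -0.10 to 0.34, limma adjusted p = 0.550), and 0.07 to 0.16 when 1 line was left out. A value at the floor sets no lower limit on the RNA, so the order of the lines within it has no meaning.

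S1PR4, a sphingosine 1-phosphate receptor of hematopoietic cells, was present in all BCP-ALL lines and at the floor in 2 T-ALL lines. In BCP-ALL it was 8.60 in REH, 8.23 in Nalm6, 7.89 in Nalm30, 7.86 in RS4,11, 7.58 in Nalm16 and 7.55 in 697. In T-ALL it was 8.16 in CCRF-CEM, 8.08 in ALL-SIL, 7.37 in P12-ICHIKAWA, 7.02 in TALL-1 and 6.73 in HPB-ALL, and 4.0 in both Jurkat and Molt4. Hence 5 T-ALL lines lay below every BCP-ALL line, though P12-ICHIKAWA was closer to 697 than the scale of 0.42, and CCRF-CEM and ALL-SIL lay within the BCP-ALL range. The gap between HPB-ALL and the pair at the floor was 2.73. The mean was 7.95 ± 0.404 in BCP-ALL (SD, n = 6) and 6.48 ± 1.77 in T-ALL (SD, n = 7). The difference of -1.47 (SE 0.676, 95% interval -2.93 to -0.02) did not pass (limma adjusted p = 0.248, exact permutation p = 0.0606). Jurkat and Molt4 were also the T-ALL lines lowest for CCR7.

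S1PR1 varied within both lineages and did not separate them. It was highest in CCRF-CEM at 6.64, followed by Nalm30 at 6.02, Jurkat at 6.0 and Nalm16 at 5.99, and the last 3 were not separated from each other. It was near the floor in 7 lines, 3 of them BCP-ALL and 4 T-ALL, with the lowest level of 4.0 in REH. Means were 5.11 ± 0.822 (SD, n = 6) and 5.14 ± 0.907 (SD, n = 7). The difference was 0.03 (SE 0.440, 95% interval -0.92 to 0.97, limma adjusted p = 0.984), and its sign changed under quantile normalization. The interval leaves room for almost 1 log2 unit in either direction.

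P2RY8, a receptor for S-geranylgeranyl-L-glutathione, was well above the floor in every line, from 8.85 in Molt4 to 10.28 in Jurkat. Neighbouring lines in the order were never further apart than 0.37. In BCP-ALL there was a gap of 0.85 between 697 at 9.14 and Nalm16 at 9.99, with REH at 10.08 and Nalm30 at 10.19 above it and Nalm6 at 9.09 and RS4,11 at 8.96 below. Means were 9.57 ± 0.567 (SD, n = 6) and 9.54 ± 0.496 (SD, n = 7). The difference was -0.03 (SE 0.279, 95% interval -0.63 to 0.57, limma adjusted p = 0.965), and its sign changed when Nalm16 and Nalm30, or P12-ICHIKAWA and TALL-1, were averaged.

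Correlations between the receptors over the 13 lines are given as a description, since the lines share their lineage and some are closely alike. Of the 45 pairs, CCR4 with CCR7 had the highest r, at 0.713, followed by CCR6 with CCR7 at 0.688. CCR4 was near the floor in 11 lines and CCR6 in all 13, so these values rest largely on unresolved levels. CCR7 with S1PR4 had r = 0.988 within the 7 T-ALL lines, where Jurkat and Molt4 were lowest for both, beside 0.078 over all 13 lines and -0.027 within BCP-ALL. CXCR4 with S1PR4 had r = 0.922 within the 6 BCP-ALL lines, and CCR4 with P2RY8 had r = -0.927 there with CCR4 near the floor. CCR9 with P2RY8 had the most negative r over all lines, at -0.545, and within T-ALL it was -0.930. There Molt4, TALL-1 and P12-ICHIKAWA, with CCR9 at 9.20 or more, had P2RY8 at 8.85, 9.11 and 9.24, and the remaining T-ALL lines had P2RY8 at 9.61 to 10.28, a gap of 0.37 that is under the scale of 0.42. In the BCP-ALL lines CCR9 was at the floor, so its r of -0.760 there rests on differences of 0.14 at most.

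For the 5 receptors that ranged over at least 2 log2 units, the genes most alike over the 13 lines were sought among genes with at least the same range. CCR7 was most like ERO1A (r = 0.903), ZNF222 (r = 0.899) and KIF21B (r = 0.899). CCR9 was most like GEM (r = 0.906), TMEM132D (r = 0.864) and FBLN5 (r = 0.852). S1PR4 was most like GPX7 (r = 0.926), SLC37A4 (r = 0.885) and ZMIZ1 (r = 0.833). CCR4, whose range rests on CCRF-CEM, was most like SPOCK1 (r = 0.882), SDR42E1 (r = 0.875) and ECRG4 (r = 0.874), and all 3 were highest in that line. S1PR1 was most like HACD4 (r = 0.839), TMEM231 (r = 0.791) and TNFRSF8 (r = 0.789), with r of 0.758 or more inside both lineages. For other receptors the likeness inside BCP-ALL differed by gene. CCR7 had r = 0.397 with ERO1A there, 0.798 with ZNF222 and 0.809 with KIF21B. S1PR4 had r = 0.0285 with GPX7, 0.309 with SLC37A4 and 0.65 with ZMIZ1. CCR9, at the floor in BCP-ALL, had r = -0.121 with GEM, 0.386 with TMEM132D and 0.224 with FBLN5. CCR4, near the floor in every BCP-ALL line, had r = 0.607 with SPOCK1, 0.869 with SDR42E1 and 0.565 with ECRG4. Each list is the top of a ranking over many genes.

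The counts called in related lists, given from here on, stand beside 4.45% of all genes called. None of 9 other chemokine receptors passed, with a median difference of -0.06. The smallest p-values were those of CCR2 (difference -0.43, limma adjusted p = 0.182) and CXCR2 (difference -0.42, limma adjusted p = 0.186), both receptors of myeloid cells. CCR2 was near the floor in 11 lines and CXCR2 in 12, so these differences rest largely on unresolved levels. CX3CR1, named after its values were seen, was 8.97 in HPB-ALL and between 4.0 and 5.04 in the other 12 lines. None of 5 atypical chemokine receptors passed (median -0.05), with ACKR1 at a difference of -0.12 and CCRL2 at 0.32. ACKR1 was near the floor in all 13 lines. Of 12 other lipid and orphan migration receptors 1 passed, GPR174, a lysophosphatidylserine receptor, at 2.05 log2 units higher in T-ALL (SE 0.317, limma adjusted p = 0.0016). P2RY10, of the same ligand family, had a difference of 1.48 (limma adjusted p = 0.170).

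RNA of the receptors' own chemokines reached at most 5.81, for CCL19 in Nalm16. Of 11 chemokine ligands of these receptors, 0 passed in either direction and 7 were near the floor in all 13 lines, among them CCL21 and CCL25, the ligands of CCR7 and CCR9. The smallest p-values were those of CXCL12 (difference -0.20, limma adjusted p = 0.465) and CCL22, a ligand of CCR4 (difference -0.17, limma adjusted p = 0.466). Of 8 measured genes that make, break down or export the lipid ligands, 1 passed. SGPP1, a sphingosine 1-phosphate phosphatase, was 1.13 higher in T-ALL (SE 0.268, limma adjusted p = 0.0290). ABCC1, an exporter of glutathione conjugates and of sphingosine 1-phosphate, was 0.73 higher and did not pass (limma adjusted p = 0.0688).

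**Figure D5:**
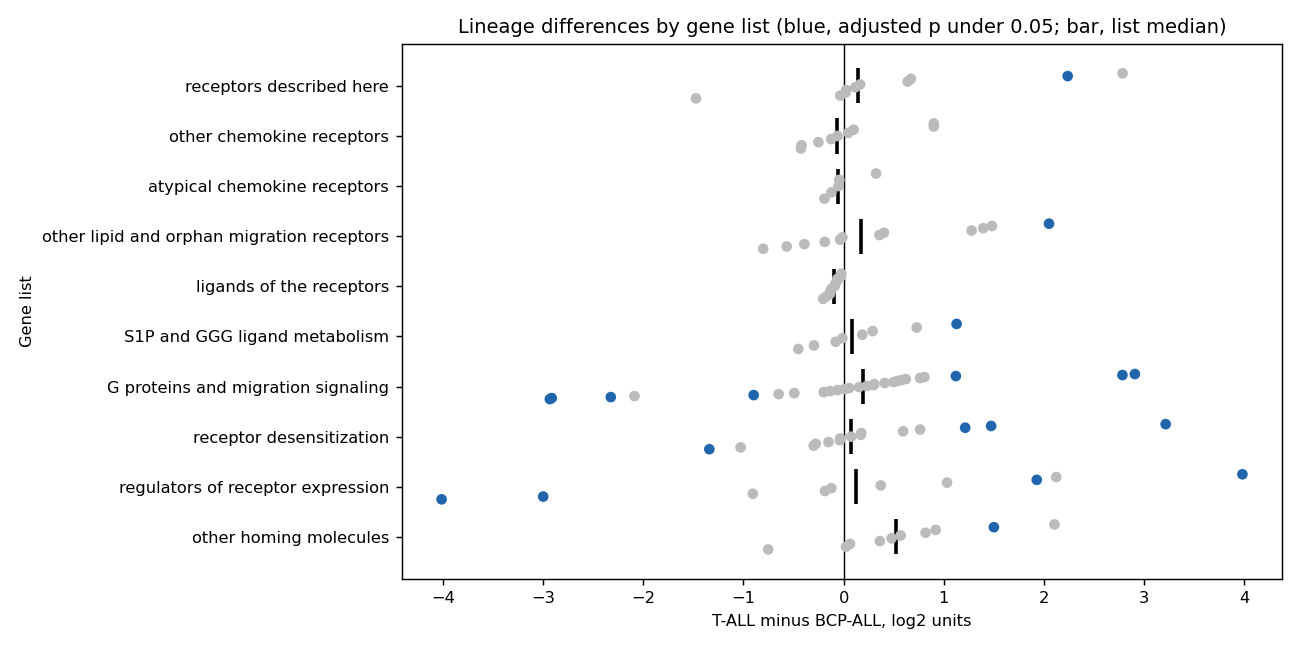
Difference between lineages (T-ALL minus BCP-ALL, log2 units, horizontal axis) of each gene in the receptor list and in 9 related lists. Blue points passed the adjusted threshold of 0.05, gray points did not, and bars are list medians. S1P is sphingosine 1-phosphate and GGG is S-geranylgeranyl-L-glutathione. Most called genes lie in the signaling, desensitization and regulator lists, and no ligand or other chemokine receptor is called. Among all genes 4.45% were called. The lists differ in size and were chosen with earlier results of these data known, so nothing is read from where the calls fall.

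Signaling genes downstream of the receptors were called in both directions. Of 26 G protein and migration signaling genes, 3 were higher and 4 lower in T-ALL, with a median of 0.19. Among all genes 2.27% were called higher and 2.19% lower. The G protein subunit GNAI1, of the family to which chemokine receptors couple, was 7.02 ± 1.46 in BCP-ALL (SD, n = 6) and at the floor in T-ALL at 4.08 ± 0.0689 (SD, n = 7), with limma adjusted p = 0.0033. Nalm6 was the BCP-ALL line without it, at 4.17. GNAI2 and GNAI3, of the same family and named for comparison, were well above the floor in both lineages and did not pass. Mean levels in BCP-ALL and T-ALL were 8.16 and 8.10 for GNAI2 (limma adjusted p = 0.939). For GNAI3 they were 9.64 and 10.05 (limma adjusted p = 0.332). GNA11 (-2.33), GNA12 (-0.90) and the guanine nucleotide exchange factor ARHGEF12 (-2.91) were also lower in T-ALL. GNAQ (2.91), the hematopoietic small GTPase RHOH (2.78) and the Rac activator DOCK2 (1.12), which serves chemokine-driven migration, were higher. Of 15 receptor desensitization genes, 3 were higher and 1 lower, with a median of 0.07. The receptor kinases moved in opposite directions, GRK3 by 3.22 (SE 0.487, limma adjusted p = 0.0014) and GRK5 by 1.47 upward, and GRK2 by -1.34. RGS10, which shortens G protein signals, was 1.21 higher.

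Of 10 measured regulators of these receptors, 2 were higher and 2 lower in T-ALL, with a median of 0.12. GATA3 (3.98, limma adjusted p = 0.00074) and NOTCH1 (1.93), both needed for early T-cell development, were higher. FOXO1 fell by 4.01 log2 units in T-ALL, from 8.39 ± 0.727 (SD, n = 6) to 4.37 ± 0.311 (SD, n = 7), and BCL6 by 3.0. FOXO1 is known to drive CCR7, KLF2 and S1PR1 in mature T cells. Here FOXO1 was near the floor in all 7 T-ALL lines, those with high and those with low CCR7. KLF2, a factor that drives S1PR1, correlated with S1PR1 at r = 0.028 and with CCR7 at r = 0.539 over the 13 lines. With CCR7 its r was -0.285 inside BCP-ALL and 0.548 inside T-ALL. Other pairings of a receptor with a regulator were computed too. CCR4 with GATA3 had r = 0.618 over the 13 lines, with CCR4 near the floor in 11 of them. S1PR1 with CD69 had r = -0.0034 over all lines, -0.843 inside BCP-ALL and 0.389 inside T-ALL. Over all lines r was -0.137 for CXCR3 with TBX21 and -0.0091 for CXCR5 with BCL6. Whether FOXO1 or KLF2 sets the level of CCR7 or S1PR1 in these lines was not tested. Among 10 other homing molecules 1 passed, SELPLG, the ligand of P-selectin, at 1.5 log2 units higher in T-ALL (SE 0.244, limma adjusted p = 0.0024). The integrin subunit ITGAE, which binds cells to epithelium, was 0.92 higher and did not pass (limma adjusted p = 0.0876).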

How the data were processed

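RNA from 13 untreated ALL cell lines was hybridized to Affymetrix HG-U133 Plus 2.0 arrays, 1 per line. The authors deposited log2 values per probe set, made with the iterPLIER+16 algorithm. Affymetrix Expression Console is the tool in the submitters' processing notes, and neither its version nor the scaling between arrays was given there or in the study's methods. Array medians ran from 5.05 to 5.37. The number of arrays limits the precision. Scan dates and array batches were not given, so no batch could be fitted.

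Of 42450 probe sets the platform annotation, dated and possibly old, gave 38125 a single symbol, 1742 several and 2583 none. Each of 18568 genes took its single-symbol probe set with the highest mean, and no gene was filtered out. Lineages were compared with limma 3.58.1 in R 4.3.3 (lmFit, eBayes with trend) over all genes, with Benjamini-Hochberg adjustment at 0.05, and by two-sided exact permutation tests per receptor. The fit was first tested on artificial data with known differences. It recovered 56 of 100 genes changed by 1 log2 unit and 88 of 100 changed by 2, with 5 false calls. A receptor that did not pass is therefore not shown to be equal in the lineages. Tables, permutations and plots were made in Python 3.11.15 (pandas 2.3.3, numpy 2.4.6, scipy 1.17.1, matplotlib 3.10.9). P-values measure the spread between lines, each with a single array.

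The receptors and gene lists were chosen with earlier results of these data known. Named genes are the 10 receptors, from each list the called genes (up to 4 per direction with the smallest p) or, where fewer than 2 were called, the 2 with the smallest p, and the 3 genes most correlated with each receptor that ranged over at least 2 log2 units. The pairings of KLF2 with S1PR1 and CCR7 were chosen after the levels had been seen, and further pairings of receptors with regulators were computed beside them. Some genes of the lists were not analysed here. Alternatives covered the filter on low values, the variance model, weights by lineage, quantile or median normalization, the probe set per gene, averaging of P12-ICHIKAWA with TALL-1 or of Nalm16 with Nalm30, the permutation test, and leaving out each line.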

Additional observations from a re-analysis of the deposited data

Results flagged for a closer look

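CCR4 in CCRF-CEM, at 6.29 log2 units, stood apart from the other T-ALL lines, which lay between 4.38 and 5.06. Its gap to the next line was 0.644 of the range of the T-ALL group. Of 20 groups of lines tested in this way (10 receptors in both lineages) 1 stood out, and chance gives about 1 in 20.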

How the results depend on the processing

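Of 236 comparisons of a value with its alternative, 211 kept both the direction and the side of the threshold, 4 were weaker, 2 stronger and 19 reversed. The 4 weaker results were all CCR7. The number of receptors called was 0 with weights by lineage and with Nalm16 and Nalm30 averaged, and 0 to 1 when 1 line was left out, 0 without Nalm16 and without Nalm30. The CCR7 difference ranged from 2.03 to 2.53 over the lines left out, with limma adjusted p from 0.0066 to 0.0540. The 2 stronger results were the unadjusted exact permutation p of CCR4 and CCR9, both 0.0239, which is not on the scale of an adjusted p. The number of genes called fell to 551 with P12-ICHIKAWA and TALL-1 averaged and ranged from 540 (without TALL-1) to 967 (without REH) over the lines left out. All reversals were of receptors with differences close to 0. CXCR5 was -0.0051 under quantile normalization, -0.010 with Nalm16 and Nalm30 averaged, and -0.12 to 0.10 over the lines left out. S1PR1 was -0.13 under quantile normalization and -0.22 to 0.21 over the lines left out. P2RY8 was 0.027 with P12-ICHIKAWA and TALL-1 averaged, 0.069 with Nalm16 and Nalm30 averaged, and -0.16 to 0.089 over the lines left out. The cause was not tested. No paired analysis was possible because the lineages are represented by different cell lines. Levels at the floor of 4 are not resolved, and 6 receptors were above the median of their array in at least 3 lines.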
